A study of Mus musculus with 16 samples.

Results

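Arteries and veins already differ in the genes their endothelial cells express before birth, and 7 genes tied to arterial endothelium are described here in VE-cadherin-positive cells of mouse embryos at E11.5. They were Efnb2, Gja4, Gja5, Unc5b, Bmx, Cxcr4 and Cxcl12, chosen by name. Every probe that the array names for one of them was taken, which gave 11 probes of the 55594 used, or 7 of 36122 gene names on the array. Efnb2, Gja5, Bmx and Cxcl12 had 2 probes each, and Gja4, Unc5b and Cxcr4 had 1. All 11 probes passed the filter on dim probes, as did 34119 probes in all. The brightest probe stood for a gene in the counts, and its signal was well above background on all 16 arrays for each of the 7 genes.

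Cells were sorted as VE-cadherin+ CD45- or VE-cadherin+ CD45+ from the embryo proper or the yolk sac, from control or Tie-2-Etv2 animals of a mixed strain background (B6/CBA and others). VE-cadherin is an adhesion protein of endothelial junctions, and CD45 is a surface protein of leukocytes. In Tie-2-Etv2 animals a transgene for Etv2, an ETS family transcription factor that directs early blood and endothelial fate, is turned on through Tie-2 driven Cre, so it is expected in endothelial cells and in cells that descend from them. The 8 groups made by tissue, gate and genotype held 2 arrays each. For the transgenic CD45- samples of the embryo proper the title gives Tie-2 alone and the genotype entry Tie-2-Etv2, which was followed. The labels do not say whether the arrays of a group came from separate embryos. The p-values therefore set a difference only against the spread of these samples within groups, and that spread may be technical. The genotype of the controls is given no further than control.

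Arterial endothelial cells display the membrane ligand ephrin-B2, made from Efnb2, whose receptor EphB4 marks veins. Notch signalling and SoxF factors are known to act upstream of this programme, and several of its enhancers carry sites for ETS factors such as Etv2. Gja4 and Gja5 encode connexins, the proteins that form gap junctions between arterial endothelial cells. Unc5b is a netrin receptor of arteries and of the tip cells of sprouts, Bmx is a Tec family kinase of arterial endothelium and endocardium, and Cxcr4 is the receptor of the chemokine Cxcl12. Cxcl12 is also made by mural and mesenchymal cells, and Cxcr4 by many leukocytes, so these last genes do not mark arteries alone.

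The probes themselves bear on how values of a gene can be read, because those of Cxcl12 report different transcripts. Per the files, the brighter Cxcl12 probe (A_51_P172502) lies on mm9 at chr6:117131227-117131286 and the dimmer (A_55_P1966204) at chr6:117125026-117125085, both on the plus strand. They are assigned to different RefSeq transcripts of the gene. The first 30 bases of each, and of the 3 probes of the connexin genes Gja4 and Gja5, read 5′ to 3′ as deposited.
Cxcl12 brighter probe: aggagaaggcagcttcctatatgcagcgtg
Cxcl12 dimmer probe: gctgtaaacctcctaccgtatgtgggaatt
Gja4 probe: acccagcgccaagttgactttcgagcctcc
Gja5 brighter probe: ccgacactggcactaagactctctgttctg
Gja5 dimmer probe: caaataacagtgggcagttgaacagcagcc
The Gja4 probe (A_52_P117352) lies at chr4:126988848-126988907 on the minus strand, and the brighter Gja5 probe (A_52_P525317) at chr3:96857349-96857408 on the plus strand. The dimmer Gja5 probe (A_55_P2178753) covers 57 genomic bases at chr3:96836339-96836395. The exon or UTR in which a probe lies was not used here.

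Gja4 was called higher and Gja5, by its brighter probe, lower in yolk sac CD45+ Tie-2-Etv2 cells. Since Etv2 binds DNA through an ETS domain, the ETS core GGAA is set in capitals (TTCC where it lies on the other strand). The promoters of this connexin pair are shown. Both are the 250 bases before the gene's start in RefSeq on GRCm38.p6, Gja4 at chr4:127314040-127314289 on the minus strand and Gja5 at chr3:97032152-97032401 on the plus strand.
Gja4 promoter: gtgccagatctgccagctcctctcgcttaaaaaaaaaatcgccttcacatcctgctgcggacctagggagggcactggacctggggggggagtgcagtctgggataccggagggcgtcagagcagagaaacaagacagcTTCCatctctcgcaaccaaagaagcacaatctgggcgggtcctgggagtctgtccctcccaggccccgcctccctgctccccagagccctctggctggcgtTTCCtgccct
Gja5 promoter: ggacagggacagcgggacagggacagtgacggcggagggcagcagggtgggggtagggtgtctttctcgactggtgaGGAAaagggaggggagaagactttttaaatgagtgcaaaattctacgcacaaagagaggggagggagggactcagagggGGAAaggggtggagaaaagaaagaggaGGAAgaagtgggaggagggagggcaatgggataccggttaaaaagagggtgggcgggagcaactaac
The window held 2 matches for Gja4 and 3 for Gja5. Over all 7 genes, each of which had an entry, the count ran from 1 (Efnb2, Cxcr4) to 3 (Gja5, Bmx, Cxcl12). Searched on both strands, GGAA occurred in 93.4% of the 32851 promoters of this length, with a median of 3 matches. These short letters therefore did not set the 7 genes apart from other promoters. A core recognised by the Notch effector RBPJ (TGGGAA, which contains the ETS core) occurred in Bmx and Cxcl12, against 21.6% of all promoters. A SOX core (ACAAT) occurred in Gja4, Bmx and Cxcl12, against 27.7%. A match is a run of letters and not a measured site.

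Levels are log2 intensities relative to the 75th percentile of the array, so they compare groups for a probe and not probes with each other. Between 50.6% and 59.9% of probes were well above background on an array, and no spot was saturated. Both gates were sorted as VE-cadherin+, but the level of Cdh5, which encodes VE-cadherin, was far apart between them. It had a group mean of 4.74 to 5.79 in the 4 CD45- groups. It was −0.16 and −0.26 in the CD45+ control groups of embryo and yolk sac, and 1.82 and 2.99 in the CD45+ Tie-2-Etv2 groups. Ptprc, which encodes CD45, was well above background on both arrays of each CD45+ group and of yolk sac CD45- Tie-2-Etv2 cells, and on no array of the other CD45- groups. In each population the lower of the transgenic arrays read higher for Etv2 than the higher of the controls. All arrays of a tissue shared a slide, genotypes lay in different columns of it and gates in different rows, so tissue and slide, and genotype or gate and position, cannot be told apart. In sorted bulk RNA, fewer cells of a type and less RNA per cell cannot be told apart either.

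Most called differences between genotypes in the 7 genes were in the yolk sac. In its CD45- cells, 6 of the 7 were lower in Tie-2-Etv2 than in control cells (Efnb2, Gja5, Unc5b, Bmx, Cxcr4 and Cxcl12) and none was higher. Of all probes, 15.1% were called lower and 24.8% higher there by limma at an adjusted p under 0.05. The median difference was −2.84 over the 7 genes and 0.18 over all probes. Gja4 was higher and Gja5 lower in yolk sac CD45+ cells, beside 17.2% of all probes called higher and 13.4% lower. Gja4 was also higher in embryo CD45+ cells, where none was lower, beside 2.02% and 0.607% of all probes. None of the 7 passed limma's test in embryo CD45- cells, and Efnb2 and Gja4 alone had an unadjusted p under 0.05. There 1.12% of all probes were called higher and 0.0264% lower, and 2253 probes had an unadjusted p under 0.05. The 2 arrays of one genotype lay wholly to one side of the other genotype's for 7 of the 7 genes in yolk sac CD45- cells, beside 74.8% of all probes, and for 6 in yolk sac CD45+ cells, beside 65.1%. They did so for 5 in embryo CD45- cells, beside 33.1%, and for 3 in embryo CD45+ cells, beside 42.6%.

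**Figure D1:**
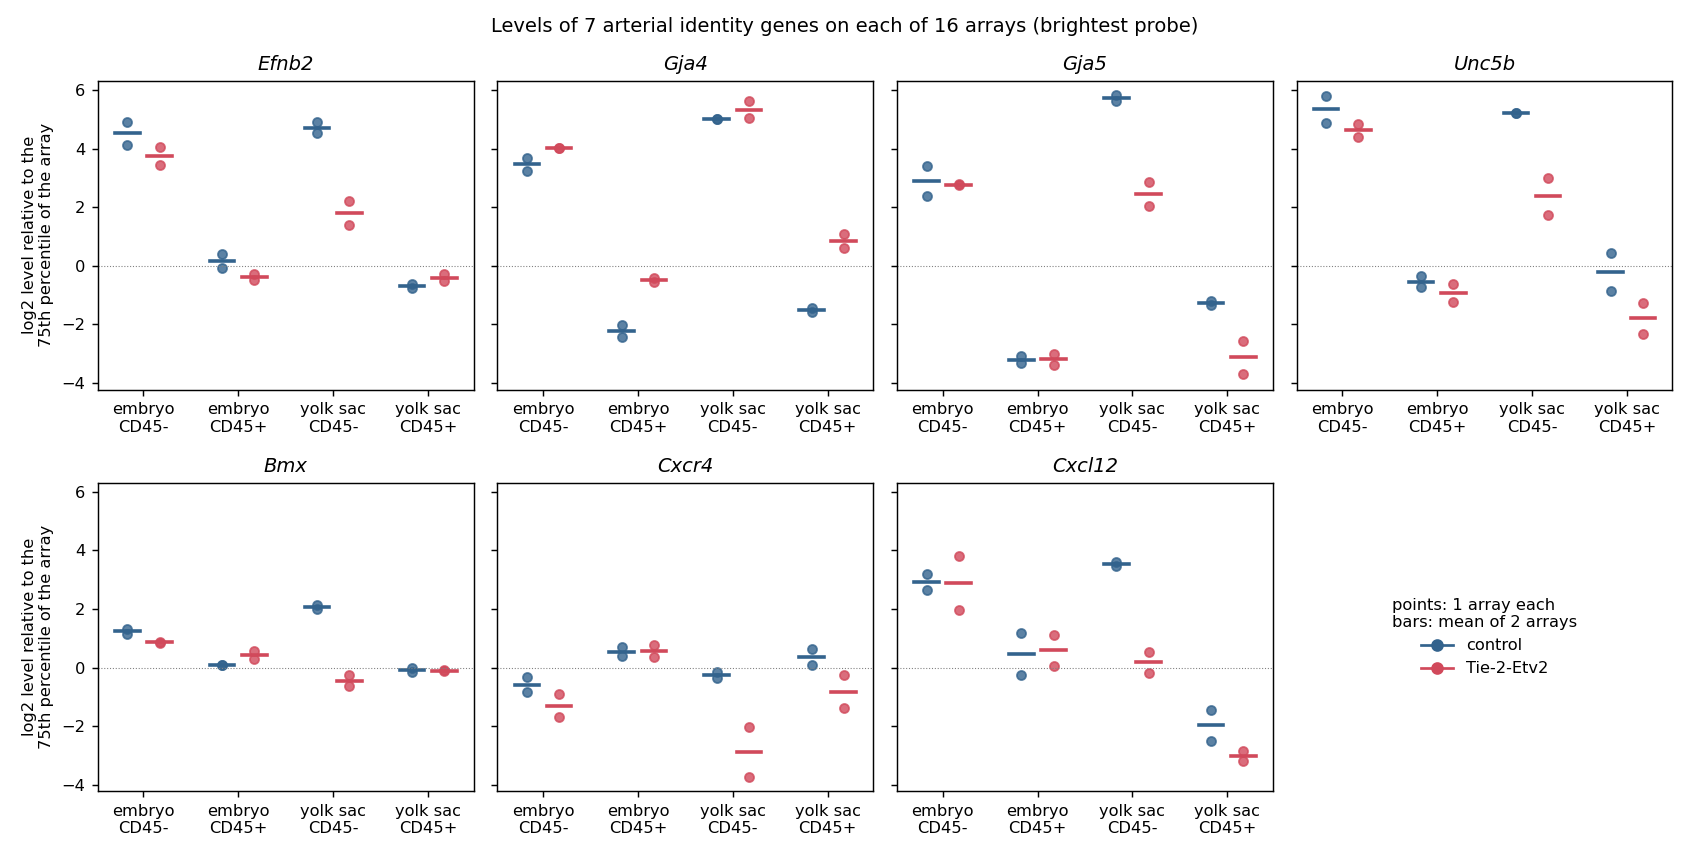
Levels of the 7 genes (brightest probe) on each of the 16 arrays, as log2 intensity relative to the 75th percentile of the array, by tissue and CD45 gate; points are arrays, bars the means of 2 arrays, blue control and red Tie-2-Etv2. In yolk sac CD45- cells the Tie-2-Etv2 points of 6 genes lie below both control points, and those of Gja4 lie above them.

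**Figure D2:**
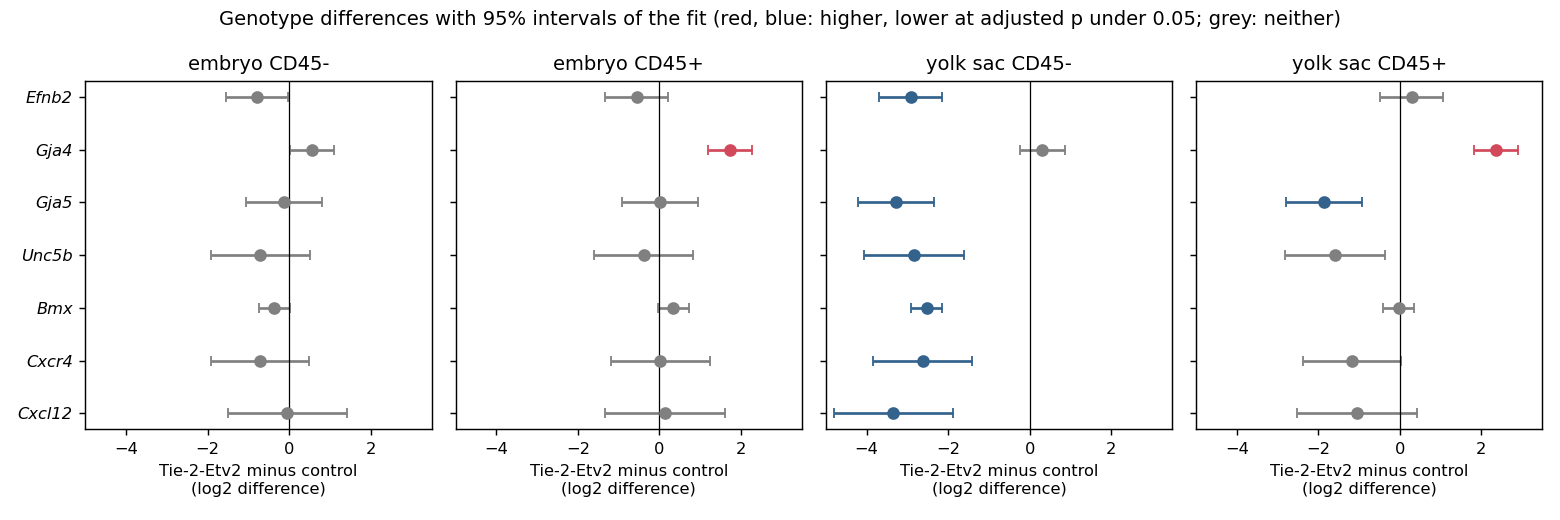
Difference between Tie-2-Etv2 and control cells (log2) for each gene in the 4 populations, with the 95% interval of the limma fit; red and blue mark genes called higher or lower and grey the rest. The yolk sac CD45- panel has 6 genes between −2.52 and −3.35, and Gja4 is red in both CD45+ panels.

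Efnb2, the arterial ligand, had levels of 4.90 and 4.54 on the control arrays of yolk sac CD45- cells. Its Tie-2-Etv2 arrays read 1.40 and 2.20. Both lay below both controls, a difference of −2.92 ± 0.34 (SE, n = 2 against 2; 7.57-fold lower, limma adjusted p = 0.000129). Embryo CD45- controls read 4.92 and 4.12 and Tie-2-Etv2 arrays 4.05 and 3.43. The groups did not overlap, but the margin between them was small beside the spread of the controls, and the difference of −0.78 did not pass (95% interval −1.55 to −0.02, adjusted p = 0.735). In CD45+ cells the gene was far dimmer, with group means of 0.17 (control) and −0.39 (Tie-2-Etv2) in the embryo. The yolk sac CD45+ means were −0.69 (control) and −0.40 (Tie-2-Etv2). Neither difference passed, and they had opposite signs (−0.56 and 0.29). In order of level by the brighter probe, yolk sac and embryo CD45- control cells came first and overlapped. Yolk sac CD45- Tie-2-Etv2 cells stood alone between the other CD45- groups and all CD45+ groups by that probe. They did not by the dimmer probe, where they read −2.63 and −2.72, beside −1.21 and −2.67 in yolk sac CD45+ Tie-2-Etv2 cells.

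Gja4, the first of the connexin pair, was the one gene of the 7 that was not called lower in yolk sac CD45- Tie-2-Etv2 cells. It read 5.02 on both control arrays there, and 5.62 and 5.05 on the Tie-2-Etv2 arrays, a difference of 0.31 (95% interval −0.23 to 0.86, adjusted p = 0.343). The second Tie-2-Etv2 array lay just above the controls, and the sign of this difference turned with the scaling: it was −0.002 when arrays were scaled on probes detected everywhere and −0.11 after quantile normalization. Among yolk sac CD45+ cells, controls read −1.45 and −1.58 and the Tie-2-Etv2 arrays 1.09 and 0.62. This rise of 2.37 ± 0.25 (5.15-fold, adjusted p = 8.09e-05) was many times the spread within either group. The embryo CD45+ controls read −2.42 and −2.03 and the Tie-2-Etv2 arrays −0.42 and −0.56. Gja4 was thus higher there too, by 1.73 ± 0.25 (3.32-fold, adjusted p = 0.0048), a call that was lost (adjusted p = 0.152) when the 4 arrays concerned were fitted alone. Embryo CD45- control arrays read 3.25 and 3.69 and both Tie-2-Etv2 arrays 4.04, a difference of 0.57 that did not pass (adjusted p = 0.731). The difference in Gja4 between genotypes had the same sign in all 4 populations under the main scaling, and passed in the CD45+ cells of both tissues. All neighbours in its order of levels were apart on both arrays, from yolk sac CD45- Tie-2-Etv2 cells at the top to embryo CD45+ control cells at the bottom.

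Gja5, the other connexin of arteries, was called lower in both gates of the yolk sac by its brighter probe. Its CD45- control arrays read 5.64 and 5.83, the highest of any group, and its Tie-2-Etv2 arrays 2.03 and 2.87. Both transgenic arrays lay far below both controls, a difference of −3.29 ± 0.42 (9.75-fold lower, limma adjusted p = 0.000207). The yolk sac CD45+ controls read −1.18 and −1.32 and the Tie-2-Etv2 arrays −3.70 and −2.55, a difference of −1.87 ± 0.42 (3.65-fold lower, adjusted p = 0.00686). That call was lost at an adjusted p of 0.0666 without replicate 1 of yolk sac CD45+ Tie-2-Etv2, at 0.0674 when the 4 arrays were fitted alone and at 0.233 when both probes were averaged. In the embryo the genotypes overlapped in both gates. CD45- controls read 2.38 and 3.41 around Tie-2-Etv2 arrays at 2.75 and 2.78 (difference −0.13, 95% interval −1.06 to 0.80). CD45+ arrays all lay between −3.37 and −3.02 (difference 0.01, 95% interval −0.92 to 0.94).

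Unc5b, the netrin receptor, read 5.23 and 5.20 on the yolk sac CD45- control arrays and 1.75 and 3.00 on the Tie-2-Etv2 arrays. The transgenic arrays differed widely from each other, and both were still lower than the controls. The difference was −2.84 ± 0.55 (7.15-fold lower, adjusted p = 0.00238). It became −2.21 without replicate 1 of the Tie-2-Etv2 cells and −3.46 without replicate 2, and passed in both cases. Yolk sac CD45+ controls read 0.45 and −0.85 and the Tie-2-Etv2 arrays −2.32 and −1.26. This difference of −1.59 ± 0.55 lay at the edge of the threshold (adjusted p = 0.0503), and passed without replicate 2 of the controls (0.0211) or of the Tie-2-Etv2 cells (0.0430). In the embryo neither gate passed, with differences of −0.71 (CD45-) and −0.38 (CD45+). Embryo and yolk sac CD45- control cells overlapped at the top of its order of levels.

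Bmx, the Tec family kinase, had the smallest error of the 7 genes. Yolk sac CD45- controls read 2.00 and 2.14 and Tie-2-Etv2 arrays −0.27 and −0.64, the lowest arrays of the gene anywhere. The difference was −2.52 ± 0.17 (5.74-fold lower, adjusted p = 4.20e-06). Embryo CD45- controls read 1.16 and 1.31 and Tie-2-Etv2 arrays 0.88 and 0.85, a difference of −0.37 that did not pass (95% interval −0.75 to 0.01, adjusted p = 0.776). In CD45+ cells all arrays lay between −0.15 and 0.57, and the differences of 0.34 (embryo) and −0.02 (yolk sac) did not pass. Yolk sac CD45- Tie-2-Etv2 cells were therefore placed last in the order of Bmx levels by its brighter probe, apart from every CD45+ group.

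Cxcl12 and its receptor Cxcr4 were both lower in yolk sac CD45- Tie-2-Etv2 cells. Cxcl12 read 3.45 and 3.59 on control arrays and −0.19 and 0.54 on Tie-2-Etv2 arrays, a difference of −3.35 ± 0.66 (10.2-fold lower, adjusted p = 0.00266). This was the largest genotype difference of the 7 genes and also the one with the largest error. The embryo CD45- controls read 3.20 and 2.66 and the Tie-2-Etv2 arrays 3.81 and 1.96, on either side of the controls, so the difference of −0.05 had an interval of −1.51 to 1.42. The summed level of 10 mesenchymal genes was 6.34 on the first of these Tie-2-Etv2 arrays and 4.79 on the second, against 5.37 and 5.42 on the controls. Among embryo CD45+ cells Cxcl12 read −0.27 and 1.17 on control arrays whose mesenchymal sums were 2.57 and 4.15, and 1.11 and 0.06 on Tie-2-Etv2 arrays whose sums were 3.90 and 3.09. In these embryo groups Cxcl12 was higher on the array with the higher mesenchymal sum, except in the CD45- controls. It was so too in both yolk sac control groups. These read 3.45 and 3.59 beside sums of 6.84 and 6.91 in CD45- cells. In CD45+ cells they read −1.435 and −2.511 beside sums of 5.97 and 4.62. The yolk sac Tie-2-Etv2 arrays of both gates ran the other way, with −0.19 and 0.54 beside sums of 5.95 and 5.46 in CD45- cells. The part of mesenchymal RNA in the Cxcl12 values was not tested. Cxcl12 did not pass in yolk sac CD45+ cells (difference −1.05, adjusted p = 0.268).

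Cxcr4 was the one gene of the 7 whose highest levels were in CD45+ cells. Its yolk sac CD45- arrays read −0.35 and −0.16 for controls and −3.75 and −2.02 for Tie-2-Etv2. The 2 transgenic arrays were far apart, with a difference between genotypes of −2.63 ± 0.54 (6.18-fold lower, adjusted p = 0.00342). It passed without either of them, at −1.76 without replicate 1 and −3.50 without replicate 2. Yolk sac CD45+ control arrays read 0.09 and 0.62 and Tie-2-Etv2 arrays −0.25 and −1.39, a difference of −1.18 that did not pass (adjusted p = 0.133). In the embryo the difference was −0.71 in CD45- cells and 0.03 in CD45+ cells, and neither passed.

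Whether the genotype difference itself changed between populations was tested in the same fit. Between the tissues, the CD45- difference was lower in the yolk sac than in the embryo for 4 genes: Gja5 by −3.16 (adjusted p = 0.00902), Cxcl12 by −3.30 (0.0415), Bmx by −2.15 (0.00122) and Efnb2 by −2.14 (0.0191). Unc5b (−2.13, 0.0935) and Cxcr4 (−1.91, 0.122) had values of like size that did not pass. By the dimmer probes Gja5 (−3.64, 0.00786) and Bmx (−2.74, 0.00517) were called lower too. The dimmer probes of Efnb2 (−1.97, 0.120) and Cxcl12 (−3.49, 0.0808) did not pass. None of the 7 was called higher, beside 8.32% of all probes higher and 5.87% lower. Leaving out any 1 of the 8 arrays of this comparison ended the Cxcl12 call (adjusted p up to 0.145), except for replicate 2 of embryo CD45- Tie-2-Etv2. That of Efnb2 ended without replicate 1 of embryo CD45- Tie-2-Etv2, of yolk sac CD45- control or of yolk sac CD45- Tie-2-Etv2, which left 2 calls. With the arrays compared fitted alone 2 calls were left as well, Gja5 and Bmx, and Cxcl12 (0.0513) and Efnb2 (0.0577) were lost. Between gates of the yolk sac, the difference was higher in CD45+ than in CD45- cells for Efnb2 (3.21, 0.00147), Bmx (2.50, 0.000108) and Gja4 (2.05, 0.00276), beside 7.42% of all probes higher and 9.60% lower. Of these, Efnb2 and Bmx were called lower in CD45- cells and not called in CD45+ cells, while Gja4 was called higher in CD45+ cells and not called in CD45- cells. The dimmer probes of Efnb2 (3.84, 0.00735) and Bmx (3.03, 0.00124) were called too. That of Gja5 was called (3.81, 0.00324) where the brighter was not (1.42, 0.143). Among yolk sac groups, the dimmer Gja5 and Bmx probes were well above background in control CD45- cells alone. None of the 7 passed for the gates of the embryo or for the CD45+ cells of the 2 tissues, where 0.466% and 0.885% of all probes were called higher and 0.495% and 1.79% lower. In those comparisons 2692 and 5955 probes had an unadjusted p under 0.05.

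The second probes were fitted on their own. For yolk sac CD45- cells all 4 gave the sign and the call of the brighter probe: −2.60 for Efnb2, −3.36 for Gja5, −3.17 for Bmx and −3.49 for Cxcl12. Those of Gja5 and Bmx were not well above background in Tie-2-Etv2 cells, so their drops are bounds, at least 8.04-fold and at least 2.30-fold. The Cxcl12 probes, which report different transcripts, correlated at r = 0.98 over the 16 arrays, those of Bmx at 0.94, of Gja5 at 0.82 and of Efnb2 at 0.82. The probes of Gja5 parted in yolk sac CD45+ cells: the dimmer gave 0.45 where the brighter gave −1.87, and it was not well above background in either group. Among embryo CD45+ cells the probes of Efnb2 (−0.56 and 0.44), Bmx (0.34 and −0.45) and Gja5 (0.01 and −0.97) had opposite signs, and none passed. Those of Gja5 (−0.13 and 0.28) and of Cxcl12 (−0.05 and 0.002) did so in embryo CD45- cells, and none passed.

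**Figure D3:**
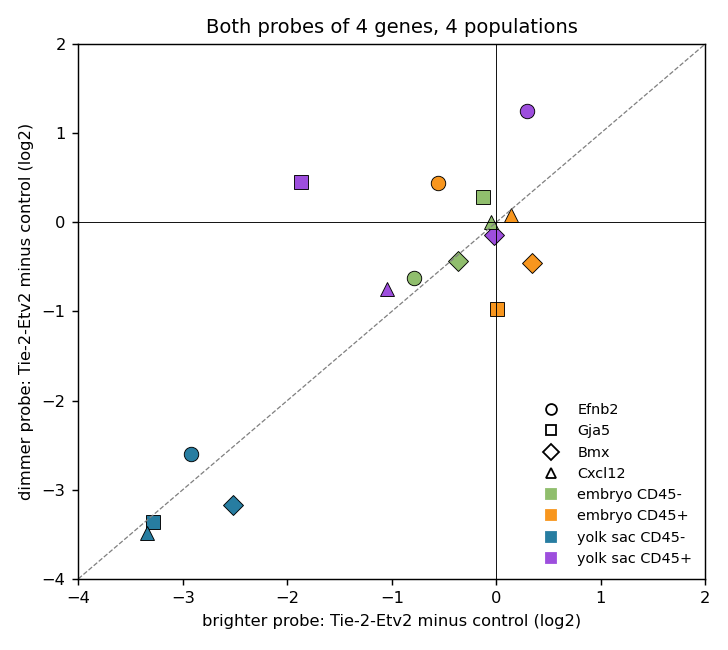
Genotype difference (log2) by the brighter probe (horizontal) and the dimmer probe (vertical) of the 4 genes with 2 probes, in the 4 populations; the dashed line marks equal values. The yolk sac CD45- points of all 4 genes lie near the line between −2.52 and −3.49, and the yolk sac CD45+ point of Gja5 lies far from it at −1.87 and 0.45.

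Between the gates, the 7 genes split into Cxcr4 and the rest. In controls of either tissue 18 of 19 pan-endothelial genes were lower and 14 of 15 leukocyte genes higher in CD45+ cells. In control embryo cells 6 of 7 were lower in CD45+ than in CD45- cells and none higher, beside 16.6% of all probes lower and 19.0% higher. In control yolk sac cells the same 6 genes were lower, beside 15.4% lower and 21.5% higher. Gja5 had the widest gap in both tissues: it was 68.7-fold lower in embryo CD45+ cells and 127-fold lower in those of the yolk sac. Gja4 was 51.8-fold and 92.7-fold lower. Efnb2 was 20.4-fold and 42.7-fold lower, Unc5b 59.2-fold and 42.7-fold, Cxcl12 5.58-fold and 45.1-fold. Bmx had the smallest gap, 2.21-fold and 4.46-fold by its brighter probe. Its dimmer probe was also called lower (−1.15 and −2.77), but was not well above background in CD45+ cells. The dimmer Gja5 probe, not well above background in CD45+ cells, did not pass in the embryo (−0.69, adjusted p = 0.304). Cxcr4 was higher in CD45+ cells without passing, by 1.13 in the embryo (adjusted p = 0.141) and 0.61 in the yolk sac (0.420). In control embryo cells the Cxcl12 call was lost without replicate 1 of the CD45- (adjusted p = 0.0765) or the CD45+ cells (0.116).

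In Tie-2-Etv2 cells the gates lay closer together in the yolk sac. There 5 of 7 genes were lower in CD45+ cells and Cxcr4 was higher (2.06, adjusted p = 0.0380), beside 5.53% of all probes lower and 4.11% higher. Bmx did not pass (0.34, adjusted p = 0.336). Efnb2 was 4.61-fold lower, Gja4 22.4-fold, Gja5 47.7-fold, Unc5b 18.0-fold and Cxcl12 9.16-fold. The dimmer probe of Efnb2 gave 0.73 here, against −2.21 by the brighter, and averaging the probes ended that call (adjusted p = 0.287). The dimmer probe of Cxcl12 (−2.08, adjusted p = 0.207) and that of Gja5 did not pass either, the first not well above background in CD45+ cells and the second in neither gate. In the embryo 5 of 7 were lower and Cxcr4 was higher (1.87, adjusted p = 0.0255), beside 13.7% lower and 15.4% higher. Bmx did not pass there either (−0.43, adjusted p = 0.0852), but it was called lower after quantile normalization (−0.52, 0.0329), with detected-probe scaling (−0.62, 0.0183) and with its probes averaged (−0.80, 0.0133). The Cxcr4 calls depended on single arrays: in the embryo the call was lost without replicate 2 of the CD45- cells (1.47, 0.166) or without either CD45+ array (0.0628 at the lowest). In the yolk sac it was lost without replicate 1 of the CD45- (1.19, 0.257) or of the CD45+ cells (1.49, 0.296). The Cxcl12 call was lost in the embryo without replicate 1 of the CD45- cells (−1.37, 0.202) or replicate 2 of the CD45+ cells (−1.77, 0.162). In the yolk sac it was lost without replicate 2 of the CD45- cells (0.0894) or either CD45+ array (0.0516 at the lowest).

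Between the tissues, control CD45- cells differed in the connexins and in Bmx. Gja5 was higher in the yolk sac by 2.84 ± 0.42 (7.16-fold, adjusted p = 0.00283), Gja4 by 1.55 ± 0.25 (2.93-fold, 0.00401) and Bmx by 0.83 ± 0.17 (1.78-fold, 0.0137), and none of the 7 was lower. Of all probes 4.93% were called higher and 5.52% lower. The dimmer Gja5 probe gave 3.22 and that of Bmx 1.32, both called. Bmx was lost without replicate 1 of the embryo controls (adjusted p = 0.0673) or without either yolk sac control array (0.0575 at the lowest). Efnb2 (0.20), Unc5b (−0.13), Cxcr4 (0.33) and Cxcl12 (0.59) did not pass. The same 10 mesenchymal genes summed to 6.84 and 6.91 on the yolk sac arrays, against 5.37 and 5.42 in the embryo. Sums over 11 genes of endoderm and epithelium were 9.16 and 9.05, against 6.28 and 5.05 in the embryo. Of the mesenchymal genes 1 was called lower and none higher in the yolk sac. Mural sums were 5.41 and 5.43 against 3.62 and 3.24 in the embryo, with 2 of 9 genes called higher and 1 lower. Of the 11 endoderm and epithelial genes 8 were called higher in the yolk sac, and the part of these cells in the differences of the members was not tested. In control CD45+ cells none of the 7 passed, beside 0.548% of all probes higher and 0.970% lower, with 4276 probes at an unadjusted p under 0.05. Gja5 came nearest, 1.95 higher in the yolk sac (adjusted p = 0.0539), and passed with a trended robust prior (0.0335).

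The genes around these 7 were followed through lists of their partners. Counts of genotype calls here and below stand beside the same shares of all probes as above. In yolk sac CD45- cells 15.1% were lower and 24.8% higher, and in yolk sac CD45+ cells 13.4% and 17.2%. In embryo CD45- cells 0.0264% were lower and 1.12% higher, and in embryo CD45+ cells 0.607% and 2.02%. Of 18 genes of Notch signalling and arterial transcription, 14 fell and none rose in yolk sac CD45- Tie-2-Etv2 cells, with a median of −2.68. Foxc1, a forkhead factor, fell by 3.73 and Hey2, a Notch target, by 3.52 (adjusted p = 2.38e-05 and 0.000372), and Hey2 was well above background on 1 of the 2 transgenic arrays. Of the 18, 4 rose and 3 fell in yolk sac CD45+ cells, beside 17.2% of all probes higher and 13.4% lower. Sox18, a SoxF factor, rose by 5.72 and Nrp1, a co-receptor of VEGF, fell by 3.61 (0.000135 and 5.74e-05). There Sox18 was well above background on 1 of the 2 control arrays. Sox18 alone of the 18 passed in embryo CD45+ cells, with a rise of 5.10 (adjusted p = 0.00274). None of them passed in embryo CD45- cells (median −0.33).

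Of 8 ephrin B and Eph genes, 3 fell in yolk sac CD45- cells, among them Ephb4, the venous receptor of ephrin-B2 (−1.58, adjusted p = 0.00566), and Ephb1 (−2.35, 0.0127). Ephb3 alone passed in yolk sac CD45+ cells (−2.45, 0.000211), and in the embryo none did. Of 6 other connexins, 4 fell in yolk sac CD45- cells, led by Gjc1 (−3.41, 0.000499). Another 3 calls were made in yolk sac CD45+ cells, all lower, among them Gja1 (−1.87, 0.0165) and Gjb6 (0.0221), which was not well above background in Tie-2-Etv2 cells. No connexin of the list rose in any population, whereas Gja4 rose in both CD45+ populations. Of the 9 genes measured around netrin and its receptors, 7 fell in yolk sac CD45- cells, with Flrt2, an Unc5b ligand, at −3.45 (0.0197) and Neo1, another netrin receptor, at −2.86 (0.000121). Robo4, an endothelial partner of Unc5b, rose by 1.68 in yolk sac CD45+ cells (0.0105) and Neo1 fell by 3.05 (0.000112).

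In yolk sac CD45- cells the other Tec kinases went against Bmx. All 3 that were measured rose in yolk sac CD45- Tie-2-Etv2 cells, among them Btk, a kinase of B cells and myeloid cells, by 8.63 (adjusted p = 1.40e-08). Btk was also higher in embryo CD45- Tie-2-Etv2 cells, by 5.28 (1.18e-06). The gene was higher in yolk sac CD45+ cells too, by 0.91 (0.00888). Of 5 further genes around Cxcl12, Ackr3, its scavenging receptor, fell by 3.59 in yolk sac CD45- cells (0.000199), while Cxcr3, a chemokine receptor of leukocytes, rose by 4.77 (5.86e-06). Over the 5, 2 rose and 3 fell there, and 1 rose and 3 fell in yolk sac CD45+ cells. Dpp4, a protease that cleaves Cxcl12, was higher in CD45+ cells of the yolk sac by 4.00 (1.91e-05) and of the embryo by at least 6.64-fold (0.000597).

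**Figure D4:**
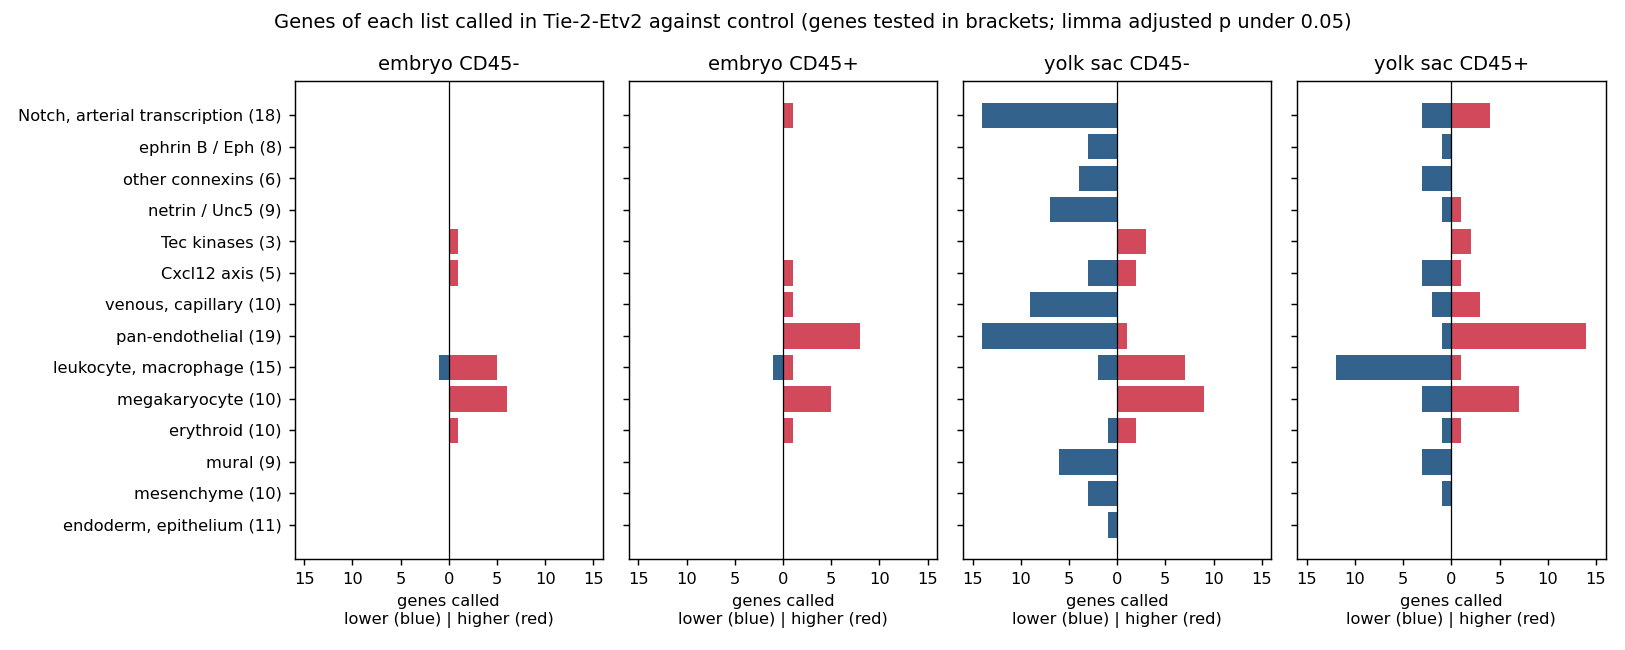
Number of genes of each list called lower (blue, left) or higher (red, right) in Tie-2-Etv2 against control cells by limma at an adjusted p under 0.05, in the 4 populations, with the genes tested in brackets. In yolk sac CD45- cells 14 of 18 Notch and arterial genes, 9 of 10 venous genes and 14 of 19 pan-endothelial genes are called lower, and in yolk sac CD45+ cells 14 of 19 pan-endothelial genes are called higher.

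The drop in yolk sac CD45- cells was shared by genes of endothelium in general and of veins. Of 19 pan-endothelial genes 14 fell and 1 rose (median −1.81), led by Emcn (endomucin, −3.60) and Nos3 (endothelial nitric oxide synthase, −3.30). Of 10 venous and capillary genes 9 fell and none rose (median −2.02), Emcn, which is on both lists, and the apelin receptor gene Aplnr (−3.25) most. The 7 arterial genes had a median of −2.84 among values that ran from −3.35 to 0.31. Their 6 drops were thus seen in the same samples as those of venous genes, and a difference between these lists was not tested. By contrast, 14 pan-endothelial genes rose and 1 fell in yolk sac CD45+ cells (median 1.68), with Tek, the gene of Tie-2 itself, 5.02 higher and Esam 4.18 higher. Another 8 calls, all higher, were made in embryo CD45+ cells (median 1.28). In the CD45+ cells of both tissues Gja4 was thus called higher together with pan-endothelial genes, and Efnb2, Unc5b, Bmx, Cxcr4 and Cxcl12 were not. None of the 19 passed in embryo CD45- cells.

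Markers of some other cells moved in the same samples. In yolk sac CD45- Tie-2-Etv2 cells 9 of 10 megakaryocyte genes were higher and none lower, and their summed level was 10.1 and 9.64 against 2.68 and 3.10 on control arrays. Leukocyte and macrophage genes (15 measured) were higher for 7 and lower for 2, with sums of 7.19 and 6.86 against 5.88 and 5.56. Lyz2 was at least 214-fold higher, while C1qa and C1qc were not well above background. Of 9 mural genes 6 were lower and none higher, with sums of 2.46 and 2.70 against 5.41 and 5.43. Tagln fell by 2.99, and Des and Myh11 were not well above background in the transgenic cells. Of 10 mesenchymal genes 3 were lower and none higher, with sums of 5.95 and 5.46 against 6.84 and 6.91. Erythroid genes (10) were higher for 2 and lower for 1, and 1 of 11 endoderm and epithelial genes was lower. These counts lay below the shares of all probes, 24.8% higher and 15.1% lower. Sums over endoderm genes were 6.17 and 8.95 against 9.16 and 9.05. The part of these cells in the lower levels of the 6 arterial genes was not tested. Pan-endothelial sums on the same arrays were 9.68 and 9.82 against 10.8 and 10.6.

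Among yolk sac CD45+ Tie-2-Etv2 cells 12 of 15 leukocyte genes were lower and 1 higher, with sums of 8.65 and 8.68 against 11.4 and 11.0. Megakaryocyte genes were higher for 7 and lower for 3, although their sums were lower, 8.23 and 7.63 against 9.34 and 8.85 on control arrays. Pan-endothelial sums were 8.70 and 8.70 against 6.43 and 6.34. Of 9 mural genes 3 were lower and of 10 mesenchymal genes 1, beside 13.4% of all probes. Embryo CD45+ Tie-2-Etv2 cells had 5 of 10 megakaryocyte genes higher and none lower, with sums that were still below the controls (7.77 and 7.55 against 8.47 and 8.12). Their pan-endothelial sums were 7.64 and 8.04 against 6.58 and 6.36, and 1 leukocyte gene was higher and 1 lower. Among embryo CD45- cells 6 megakaryocyte genes were higher and none lower, 5 leukocyte genes were higher and 1 lower, and no mural, mesenchymal or endoderm gene passed. The part of these cells in the levels of Gja4 and Gja5 in the CD45+ populations was not tested.

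Across the 16 arrays, the genes whose levels followed each member most closely were taken by Pearson's r among 14678 named genes, as a description in which arrays of a group, slide and gate share their source. Efnb2 went with Dmwd, Madcam1 and Chst2 (r = 0.99 each). Gja4 went with C1qtnf6 (0.99), Cttn (0.98) and Capn5 (0.98), and Gja5 with Clec14a (0.99), Klf14 (0.99) and F8 (0.98). Unc5b went with Slc38a4 (0.996), Efna1 (0.995) and Parva (0.993), and Bmx with Rcn2 (0.96), Lrrc3b (0.96) and Samd12 (0.95). Cxcl12 went with Tox3, Gjc1 and Meox2 (0.97 each), of which Gjc1 is a connexin gene named above. Cxcr4 had the loosest companions, Bend4 (0.93), Prkar2a (0.91) and Pwwp2b (0.91). The members themselves were left out of the genes ranked, so how closely they followed each other is not shown here.

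The choice of scaling moved all probes together in some comparisons. With arrays scaled on the probes detected on every array, the median difference of all probes between genotypes in yolk sac CD45- cells went from 0.18 to −0.14, and the share of calls that were higher from 62.1% to 41.7%. The same share went from 53.4% to 43.0% between gates in control embryo cells, from 52.9% to 41.7% in Tie-2-Etv2 embryo cells and from 58.2% to 43.0% in control yolk sac cells. For the genotype effect it went from 43.6% to 56.4% between yolk sac gates and from 58.6% to 30.3% between the CD45- cells of the tissues. The 6 genes called lower in yolk sac CD45- cells, and Gja4 in both CD45+ populations, were called under this scaling and under quantile normalization too.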

How the data were processed

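Per the file headers, spot intensities come from Agilent Feature Extraction, version 10.7 in the submitters' processing notes. The deposited processed intensities are background-subtracted and detrended within an array and not scaled between arrays. RNA was taken from cells after flow sorting and labelled with Cy3, per the labels' protocols. Control and outlier spots were left out and spots of a probe averaged. Levels were log2 of the processed intensity minus the array's 75th percentile. The filter kept probes that both arrays of some group showed well above background.

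One limma 3.58.1 model (R 4.3.3; lmFit, eBayes) was fitted over all 16 arrays and 34119 probes, with 8 residual and 2.32 prior degrees of freedom. P-values were two-sided with Benjamini-Hochberg adjustment over all probes in each of 14 comparisons, and the threshold was 0.05. It was tested on simulated data. A fold against a group not well above background is the bright group's mean over the higher of the dim probe's own signal and the array's lowest signal well above background. The summed level of a list is the log2 of its genes' added linear levels. Precision is limited by the number of arrays, 2 per group.

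The deposited value table holds log2 values. How it was made is not given in the sources used. Against the scanner values its scale is log2 with slope 1, its direction the same, and each probe is centred on its median over the 4 arrays sharing tissue and gate, while the constant per array stays unknown. Column medians (control, then Tie-2-Etv2) were 0.175, −0.0945, 0.0281 and −0.0323 for embryo CD45-, then 0.166, −0.0837, 0.00548 and −0.0324 for embryo CD45+. For the yolk sac they were 0.0851, −0.183, 0.0156 and −0.00454 (CD45-), then 0.147, 0.00331, −0.00892 and −0.121 (CD45+). It served as an alternative for genotype comparisons.

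The 7 genes, the 14 gene lists and the tests were chosen with earlier results of these data known. Named by rule were all probes of the 7 genes, for each list up to 2 called genes with the largest difference in each genotype comparison, and for each member the 3 most correlated genes. Some genes that this rule names are not reported here. Probe positions are those of the files (mm9). Promoters came from a RefSeq table on GRCm38.p6, matched by symbol for 7 of 7 genes.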

Additional observations from a re-analysis of the deposited data

Results flagged for a closer look

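By the brightest probe of each gene, the genotype difference itself differed between populations for 7 results in limma's test of the difference of effects. The 7 genes were each tested in 4 such comparisons. Between the CD45- cells of yolk sac and embryo the difference was lower in the yolk sac for Bmx (−2.15), Cxcl12 (−3.30), Efnb2 (−2.14) and Gja5 (−3.16). Of all probes 5.87% were called lower there. The calls of Cxcl12 and Efnb2 were lost with the arrays compared fitted alone. Their dimmer probes gave −3.49 and −1.97 and did not pass, while those of Gja5 and Bmx did. Between the CD45+ and CD45- cells of the yolk sac the difference was higher in CD45+ cells for Bmx (2.50), Efnb2 (3.21) and Gja4 (2.05), beside 7.42% of all probes. The dimmer Gja5 probe was called there as well (3.81), and was well above background in control CD45- cells alone of the yolk sac groups.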

How the results depend on the processing

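Across 12 kinds of alternative, the 6 genes lower in yolk sac CD45- Tie-2-Etv2 cells, and Gja4 higher in yolk sac CD45+ cells, kept direction and call. Counts of called members that moved by over 1.5 times were these: the yolk sac gate difference of effects went from 3 to 5 with normexp background, and the tissue difference of effects in CD45- cells from 4 to 2 with the arrays compared fitted alone. That fit also took embryo CD45+ from 1 to 0 and yolk sac CD45+ from 2 to 1, and it has fewer arrays. Control CD45+ tissues went from 0 to 1 (Gja5) with the trended robust prior. Replicate numbers are shared by all groups, but the labels tie them to nothing shared, and same-numbered arrays deviated together in some pairs of groups and not in others (correlations −0.0533 to 0.377, median 0.0779, over 0.1 in 9 of 28 pairs), so the numbers were not taken as pairs. With replicate number as a block, 1 member (Gja5, adjusted p = 0.0241) was called between control CD45+ tissues, and Cxcr4 was lost between gates of yolk sac Tie-2-Etv2 cells (0.0536). Leaving out 1 array gave 2 to 4 members for the tissue difference of effects and 1 to 3 for yolk sac CD45+ (1 without its Tie-2-Etv2 replicate 1).

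Signs turned only for differences that did not pass; the cause was not tested. Averaging probes gave −0.0545 for Bmx, −0.48 for Gja5 (embryo CD45+ genotype), 0.0768 for Gja5 (embryo CD45- genotype), −0.56 for Gja5 (embryo gate difference of effects) and 0.0792 for Efnb2 (control CD45+ tissues). Normexp gave −0.0199 for Gja5 in embryo CD45+ cells. Gja4 in yolk sac CD45- cells was −0.002 with detected-probe scaling and −0.11 with quantile normalization, which gave Unc5b 0.0349 between control CD45- tissues. With 1 array left out, the genotype difference ran from −0.0828 to 0.0375 (Bmx, yolk sac CD45+), −0.97 to 0.88 (Cxcl12, embryo CD45-), −0.58 to 0.85 (Cxcl12, embryo CD45+), −0.18 to 0.24 (Cxcr4, embryo CD45+), −0.64 to 0.38 (Gja5, embryo CD45-) and −0.17 to 0.19 (Gja5, embryo CD45+). Differences of effects ran from −0.74 to 1.11 (Cxcl12), −0.17 to 0.63 (Efnb2), −0.37 to 0.65 (Gja5) and −0.13 to 0.77 (Unc5b) between embryo gates, and −0.53 to 0.0299 for Gja4 between CD45- tissues. Control tissue differences ran from −0.20 to 0.60 (Efnb2, CD45-), −0.57 to 0.32 (Unc5b, CD45-), −0.30 to 1.00 (Unc5b, CD45+) and −0.45 to 0.0773 (Cxcr4, CD45+). With 2 arrays a group, differences whose intervals cross 0 set no bound on the direction.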
